A study of Mus musculus with 12 samples.

Results

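The genes described here are 10 genes that mark T cells and cytotoxic lymphocytes lying within the gut epithelium. They are *Cd3d*, *Cd3e*, *Cd3g*, *Cd8a*, *Cd8b1*, *Gzma*, *Gzmb*, *Nkg7*, *Itgae* and *Cd7*. They were taken by symbol from the table of normalized counts, where all 10 were found among 14244 genes, and all 10 had the mean of at least 10 normalized counts that was required for testing. Poly(A) RNA of gut epithelial cells was sequenced from 5 WT and 7 *Chd8L*+/- mice, C57BL/6 male littermates aged 8 weeks from crosses of *Chd8L*+/- males with WT females. *Chd8L*+/- mice carry 1 disrupted copy of the long isoform of *Chd8*, a chromatin remodeling factor, in every cell of the body, so the lymphocytes of these mice were heterozygous as well as the epithelium. The WT littermates carry no modified allele, and no mouse was treated. Cells were released from intestinal pieces by chelation and vortexing and were not sorted, and the segment of gut was not stated. The comparison asks how the RNA of lymphocytes retained in the epithelial preparation differed between the genotypes and between individual mice.

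Intraepithelial lymphocytes sit between the epithelial cells of the gut and are mostly T cells that carry CD8. Many of them display the CD8 alpha chain alone rather than paired with the beta chain, store granzymes ready for release, and are held in place by the CD103 integrin, which binds E-cadherin on epithelial cells. Epithelial cells in turn supply interleukin 15, the chemokine CCL25 and butyrophilin-like proteins that maintain and place these lymphocytes.

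The libraries held between 15691662 and 20761315 reads on genes. Epithelial marker RNA dominated every library: the summed normalized counts of 10 epithelial genes, among them *Epcam* and *Krt8*, lay between 159530 and 292141, against 2773 to 8131 for the 10 lymphocyte genes. *Chd8* itself, counted over the whole gene, was 953 ± 85.5 normalized counts in WT (SD, n = 5) and 1297 ± 123 in *Chd8L*+/- mice (SD, n = 7), with no overlap between the groups and a log2 fold change of 0.44 (limma, adjusted p = 0.121, and 0.00676 without WT replicate 2, a library described next). DESeq2 gave an adjusted p of 0.00378 for *Chd8*. A lower level in the heterozygotes was thus not seen. Since reads of the disrupted part and of the rest of the gene are counted as one, these values do not check the genotype. By real-time PCR of gut epithelial cells, the authors reported less RNA of the deleted exons and more of the first exon in *Chd8L*+/- mice. They also reported less CHD8 protein by staining. WT replicate 2 stood apart from the other WT libraries: on the first principal component of all tested genes it scored 41.0, within the *Chd8L*+/- range of 0.26 to 42.7, while the other 4 WT libraries lay between -67.5 and -26.2. Because it lay among the *Chd8L*+/- libraries, leaving it out by itself widens the difference between the genotypes. The number of genes called rose from 3 to 3534. Adjusted p-values without it show how far a result depends on this library and are not separate evidence of a difference. Where leaving it out changed whether a gene or list had genes past the threshold, both values are given. Of the 10 epithelial genes, 8 were lower and 2 higher in *Chd8L*+/- mice, but 5 and 5 with quantile normalization. By limma 0 passed with all libraries, and 2, *Krt18* and *Krt19*, without WT replicate 2, against 27.6% of all genes. *Krt18* had a log2 fold change of -1.08 (limma adjusted p = 0.121, and 0.00405 without WT replicate 2), and DESeq2 called it too.

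Several of the genes are neighbors in the genome (GRCm38 positions, GENCODE M21). The genes of the CD3 signaling chains lie together on chromosome 9, with *Cd3g* at 44969572-44980431 on the minus strand, *Cd3d* at 44981786-44987339 on the plus strand and *Cd3e* at 44998740-45009627 on the minus strand. *Cd3g* and *Cd3d* are separated by 1354 bases. *Cd8b1* (chromosome 6, 71322788-71337494) and *Cd8a* (71373427-71379173) lie 35932 bases apart on the plus strand. *Gzma* is on chromosome 13 (113093825-113100981, minus strand), *Nkg7* on chromosome 7 (43437073-43438249, plus strand) and *Gzmb* on chromosome 14 (56258838-56262260, minus strand), 4001057 bases from *Chd8*. *Itgae* (73090583-73147446, plus strand) and *Cd7* (121036747-121039418, minus strand) are both on chromosome 11. *Itgae* and *Cd7* each overlap an annotated gene on the opposite strand (*Haspin* and *Gm11775*), and *Cd3e* overlaps *Gm48719* and *Gm48720*. As the use of strand in counting was not given in the sources used here, reads of such overlaps could not be assigned with certainty.

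The sequences just before the start sites of these genes are described next, and a relation between them and the levels of the genes was not tested. RefSeq promoter sequence (GRCm38.p6) was found for 7 of the 10 genes, all except *Cd8b1*, *Itgae* and *Cd7*. The 250 bases before the start are shown for a CD3 chain and for the 3 cytotoxic genes, 5′ to 3′ on the gene's own strand. The windows end at the RefSeq start, which for *Gzmb* lies upstream of the GENCODE gene given above and for *Nkg7* and *Cd3e* inside it, so positions in the windows refer to RefSeq only. They were searched on both strands for short core motifs of 3 transcription factor families that act in T cells. Capitals mark TGTGGT (RUNX family, ACCACA on the other strand), AGGAAG (ETS family, CTTCCT on the other strand) and GGTGTGA (T-box family, TCACACC on the other strand), and no marked copies overlap one another.
*Cd3e*, chr9:45009612-45009861, minus strand: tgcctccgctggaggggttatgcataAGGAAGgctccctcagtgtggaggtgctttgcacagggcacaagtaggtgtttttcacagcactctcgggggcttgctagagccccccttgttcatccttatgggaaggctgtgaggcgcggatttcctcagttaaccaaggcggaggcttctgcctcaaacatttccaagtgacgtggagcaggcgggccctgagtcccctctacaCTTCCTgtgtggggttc
*Gzma*, chr13:113100982-113101231, minus strand: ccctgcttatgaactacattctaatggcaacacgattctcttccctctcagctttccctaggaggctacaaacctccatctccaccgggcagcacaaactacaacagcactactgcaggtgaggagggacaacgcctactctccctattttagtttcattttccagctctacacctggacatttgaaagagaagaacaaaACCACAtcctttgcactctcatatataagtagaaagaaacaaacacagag
*Gzmb*, chr14:56262335-56262584, minus strand: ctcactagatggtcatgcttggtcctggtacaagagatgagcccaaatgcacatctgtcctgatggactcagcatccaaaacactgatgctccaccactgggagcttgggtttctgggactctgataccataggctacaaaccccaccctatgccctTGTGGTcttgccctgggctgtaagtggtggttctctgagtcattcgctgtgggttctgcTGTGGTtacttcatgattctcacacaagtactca
*Nkg7*, chr7:43436888-43437137, plus strand: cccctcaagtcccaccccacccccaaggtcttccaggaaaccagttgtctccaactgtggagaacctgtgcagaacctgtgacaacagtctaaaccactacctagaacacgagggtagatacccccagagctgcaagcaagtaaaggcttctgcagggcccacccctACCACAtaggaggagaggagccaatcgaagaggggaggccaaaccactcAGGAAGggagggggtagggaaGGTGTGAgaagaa

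The RUNX core was found in 3 of the 7 promoters, those of *Gzma*, *Gzmb* and *Nkg7*, and in 14.2% of all 27025 promoters of this length. In *Gzmb* it occurred in 2 copies, which began 93 and 34 bases before the RefSeq start. The ETS core was present in *Cd3d*, *Cd3e* and *Nkg7*, against 29.2% of all promoters, and the T-box core in *Nkg7* alone of the 7, against 3.31%. The windows of *Cd3g* and *Cd8a* held none of the 3 motifs. The motifs were chosen with the values of the genes known, and a match describes the letters only.

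No gene of the CD3 complex, the signaling part of the T cell receptor, differed between the genotypes beyond the spread between mice. *Cd3e*, the epsilon chain, was 301, 300.3, 348, 182 and 177 normalized counts in WT replicates 1 to 5, and in *Chd8L*+/- mice its lowest, median and highest values were 152, 184 and 339. WT replicates 1, 2 and 3 and *Chd8L*+/- replicate 7 formed the upper end, and the groups overlapped. The means were 262 ± 77.4 in WT (SD, n = 5) and 212 ± 65.2 in *Chd8L*+/- mice (SD, n = 7), a log2 fold change of -0.30 (95% interval -0.79 to 0.19, limma, adjusted p = 0.423). *Cd3e* gave the smallest adjusted p of the 10 genes in this comparison.

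*Cd3g*, the gamma chain, was 336, 381, 431, 206 and 212 in the WT libraries and 206, 259 and 460.4 (lowest, median, highest) in *Chd8L*+/- libraries. The same 2 WT libraries were low, replicates 4 and 5, and 1 *Chd8L*+/- library exceeded every WT library. Its log2 fold change was -0.17 (-0.67 to 0.33, adjusted p = 0.681 by limma). *Cd3d*, the delta chain, was 96.9, 123, 113, 67.4 and 84.0 in WT libraries. In *Chd8L*+/- libraries it ranged from 44.9 through a median of 101 to 132, with 3 libraries below every WT library and 2 above, so the heterozygotes enclosed the WT range on both sides. The log2 fold change of *Cd3d* was -0.18 (-0.83 to 0.47, adjusted p = 0.740 by limma).

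The alpha and beta chains of the CD8 co-receptor were measured at very different levels. *Cd8a* was abundant, with 687, 712, 677, 369.9 and 306 normalized counts in WT libraries and 308, 482 and 839 (lowest, median, highest) in *Chd8L*+/- libraries. It repeated the pattern of *Cd3e*, WT replicates 4 and 5 being low and *Chd8L*+/- replicate 7 high. Means of 550.4 ± 196 in WT (SD, n = 5) and 507 ± 179.7 in *Chd8L*+/- mice (SD, n = 7) gave a log2 fold change of -0.10 (-0.68 to 0.48, adjusted p = 0.840 by limma). *Cd8b1* was scarce, at 38.2, 23.3, 21.2, 20.8 and 20.1 in WT libraries and 17.3, 28.8 and 59.7 (lowest, median, highest) in *Chd8L*+/- libraries. WT replicates 2 to 5 lay within a narrow band, and *Chd8L*+/- replicates 3, 4 and 5 lay above every WT library. The log2 fold change of *Cd8b1*, 0.40, was the highest of the 10 genes, yet its interval of -0.31 to 1.11 was the widest but for that of *Gzma* and included no difference (adjusted p = 0.464 by limma). Only 16 to 57 reads per library stood behind *Cd8b1*, so its relative counting error is the largest of the set.

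The granzyme genes had the highest levels of the group. *Gzma*, which encodes granzyme A, a serine protease of cytotoxic granules, was 2771, 2889.8, 3208, 970.0 and 1977 normalized counts in WT libraries. In *Chd8L*+/- libraries it was 1041 at the lowest, 2102 at the median and 3742 at the highest. WT replicate 4 had the lowest and *Chd8L*+/- replicate 7 the highest value of all 12, with the groups overlapping throughout. The log2 fold change was -0.23 (-0.98 to 0.51, adjusted p = 0.701 by limma). *Gzmb*, which encodes granzyme B, a protease that triggers death of target cells, was 1164, 1047, 948, 463 and 454 in WT libraries and 493.4, 800.5 and 1289 (lowest, median, highest) in *Chd8L*+/- libraries. Here 2 *Chd8L*+/- libraries, replicates 3 and 7, exceeded every WT library and none lay below the WT range. Its means were close, at 815 ± 335 in WT (SD, n = 5) and 829.1 ± 299 in *Chd8L*+/- mice (SD, n = 7), with a log2 fold change of 0.06 (-0.57 to 0.69, adjusted p = 0.919 by limma). Granzymes are a family of similar genes, and how reads shared between them were counted was not given in the sources used here.

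*Nkg7*, a membrane protein of cytotoxic granules, was 233, 204, 212, 114 and 94.0 in WT libraries and 82.6, 138 and 214 (lowest, median, highest) in *Chd8L*+/- libraries. No *Chd8L*+/- library exceeded the highest WT library, and 2 lay below the lowest. The log2 fold change was -0.28 (-0.91 to 0.36, adjusted p = 0.582 by limma).

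The genes of epithelial residence and of the lymphocyte surface did not separate the genotypes either. *Itgae*, the CD103 integrin chain that pairs with integrin beta 7, was 406, 486, 400.3, 193 and 251 in WT libraries and 239, 299 and 624.5 (lowest, median, highest) in *Chd8L*+/- libraries. *Chd8L*+/- replicates 3 and 7 lay above every WT library. Its log2 fold change was 0.09 (-0.49 to 0.67, adjusted p = 0.862 by limma). *Cd7*, a surface protein of T and natural killer cells, was 383, 382, 413, 185 and 232 in WT libraries and 214, 300.4 and 463 (lowest, median, highest) in *Chd8L*+/- libraries. The same 2 *Chd8L*+/- libraries were above the WT range, and the log2 fold change was 0.05 (-0.46 to 0.55, adjusted p = 0.920 by limma). In whole preparations of this kind, fewer cells of a type and less RNA per cell cannot be told apart.

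**Figure D1:**
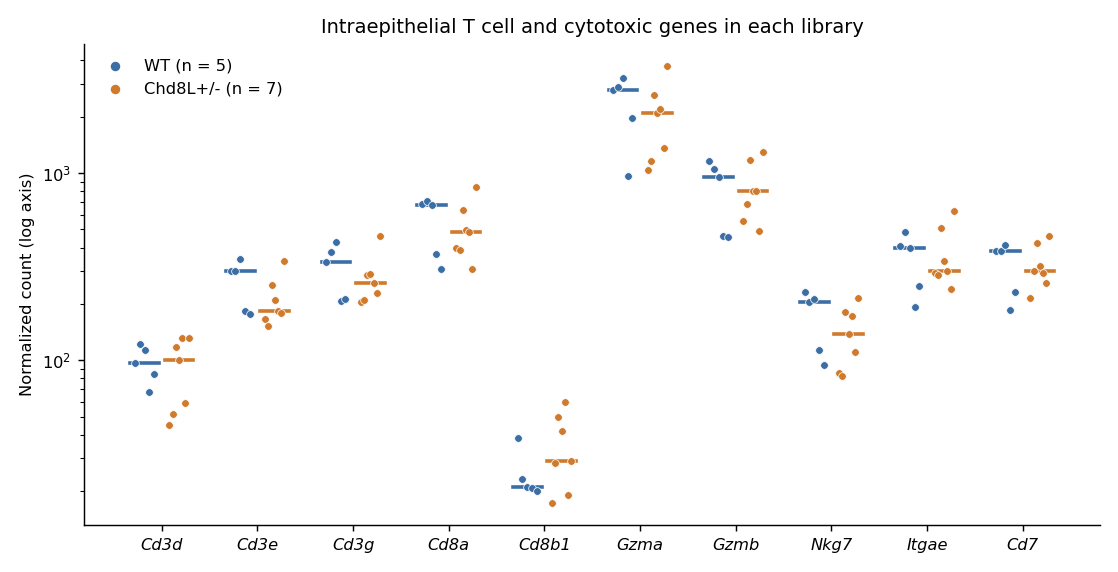
Normalized counts (log axis) of the 10 genes in each library, WT in blue (n = 5) and *Chd8L*+/- in orange (n = 7), with a bar at each group's median. The groups overlap for every gene, and the spread within each group is wide, as for *Cd8a* from 306 to 712 in WT.

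In all, 0 of the 10 genes passed an adjusted p of 0.05 in the limma comparison of all libraries, in which 0.0234% of 12808 genes did. At an unadjusted p of 0.05, again 0 of 10 passed, against 24.3% of all genes tested. In *Chd8L*+/- mice 6 genes had a lower and 4 a higher mean log2 level, with a median log2 fold change of -0.14 against 0.01 over all genes tested. With 1 library left out, the median lay between -0.26 (without WT replicate 4) and -0.02 (without WT replicate 3), and the split became 9 lower and 1 higher without WT replicate 4, WT replicate 5 or *Chd8L*+/- replicate 7. For none of the 10 were the groups free of overlap, which was the case for 0.515% of all genes. The two-sided exact permutation test over libraries gave p-values between 0.230 (*Cd3e*) and 0.851 (*Cd7*).

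When WT replicate 2 was left out, 27.6% of all genes passed, and 0 of the 10 did, with adjusted p-values from 0.445 (*Cd8b1*) to 0.981 (*Cd8a*) by limma. On the recovered reads DESeq2 called 6.44% and edgeR 0.039% of all genes, and each called 0 of the 10. With the letter at the head of the library name as a block, whose meaning is not stated, 3.52% of all genes and 0 of the 10 were called. The intervals bound what could have been missed: the widest, for *Gzma*, allows a level in *Chd8L*+/- mice between 0.507 and 1.43 times that in WT, and the narrowest, for *Cd3e*, between 0.578 and 1.14 times.

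**Figure D2:**
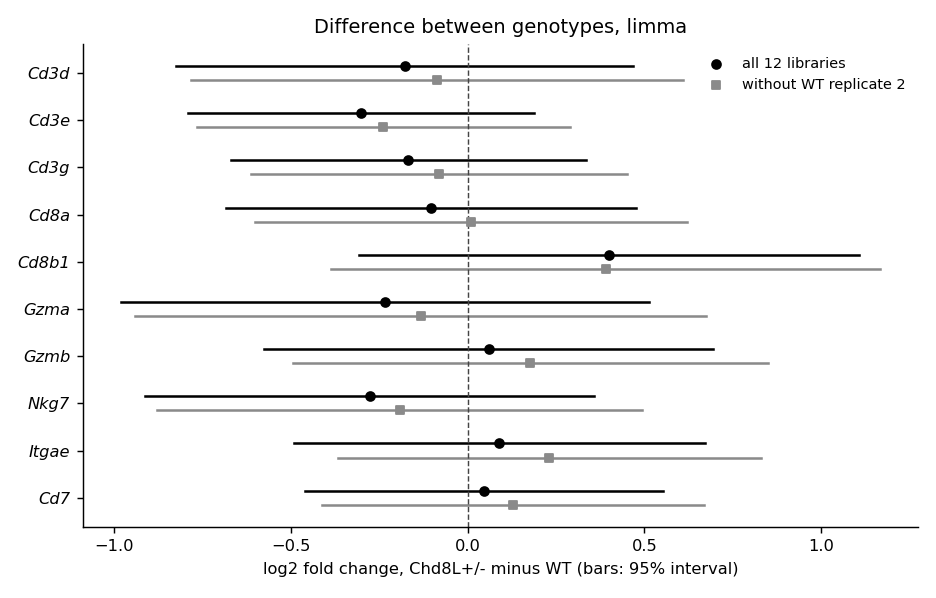
Log2 fold change of each gene, *Chd8L*+/- minus WT, with its 95% interval from limma, for all 12 libraries (black circles) and without WT replicate 2 (gray squares). Every interval includes 0, and leaving out WT replicate 2 moves no estimate out of its interval.

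Per length of exon, the granzyme genes were the most and *Cd8b1* the least abundant. Averaged over 12 libraries, *Gzma* had 2158 normalized counts per kilobase, followed by *Gzmb* with 573, *Cd7* with 284, *Nkg7* with 168, *Cd8a* with 144, *Cd3g* with 89.2, *Itgae* with 78.7, *Cd3e* with 57.0, *Cd3d* with 51.5 and *Cd8b1* with 20.7 normalized counts per kilobase. Of the neighbors in this order, the ranges over libraries overlapped for every pair except *Gzma* and *Gzmb*, where the lowest *Gzma* value per kilobase, 964, exceeded the highest *Gzmb* value, 898. *Cd8a* and *Cd8b1* did not overlap either, with at least 84.1 and at most 40.3 normalized counts per kilobase. The scale assumes that all annotated exon length was covered.

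The variation between mice was shared. With each gene's log2 level set against its own median over the 12 libraries, WT replicates 1, 2 and 3 were above it for 9 of the 10 genes, *Chd8L*+/- replicates 3 and 7 for all 10 and *Chd8L*+/- replicate 4 for 8. WT replicates 4 and 5 and *Chd8L*+/- replicates 1 and 6 were above it for 0 genes, and *Chd8L*+/- replicate 2 for 1. *Chd8L*+/- replicate 5 lay in the middle, with 4 genes above. The summed normalized counts of the 10 genes accordingly ran from 2773 in WT replicate 4 to 8131 in *Chd8L*+/- replicate 7, and both genotypes held high and low libraries.

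Across the 12 libraries, *Cd3e* was followed most closely by *Cd3g* (Pearson's r = 0.962, Spearman's rho = 0.923, adjusted permutation p = 0.00018 for r and 0.0009 for rho). *Nkg7* (r = 0.910, rho = 0.965) and *Cd8a* (r = 0.905, rho = 0.846) came next, with adjusted permutation p-values for r of 0.00126 and 0.00072. *Gzma* (r = 0.874), *Cd7* (r = 0.828), *Itgae* (r = 0.819), *Gzmb* (r = 0.817) and *Cd3d* (r = 0.733) also passed, with adjusted permutation p-values of 0.0027, 0.00441, 0.00441, 0.00627 and 0.0181. Without the 2 libraries farthest from the median of *Cd3e*, r for these 8 genes was between 0.688 (*Cd3d*) and 0.934 (*Cd3g*). Within the 7 *Chd8L*+/- libraries alone it was between 0.747 and 0.959. *Cd8b1* was the one gene of the set that did not pass, with r = 0.136 and rho = 0.427 against *Cd3e* (adjusted permutation p = 0.751 and 0.252) and r = 0.393 against *Cd8a*. In all, 18 such relations were computed and adjusted together.

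The same held for pairs within the set, described here with no test after each gene was centred on its genotype mean. The 36 pairs without *Cd8b1* had r between 0.713 and 0.973, with a median of 0.895, while the 9 pairs with *Cd8b1* had r between 0.294 and 0.703, with a median of 0.466. All these values share the scaling of each library.

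Among the 12798 other genes tested, the 10 whose centred levels were most like the mean of the set over 12 libraries were *Ctsw* (r = 0.957), *Ccl5* (0.955), *Klrd1* (0.941), *Lcp2* (0.940), *Cd96* (0.921), *Sla2* (0.911), *Apol7e* (0.908), *Cxcr6* (0.904), *Ccr9* (0.902) and *Zap70* (0.901). *Ctsw* encodes the cathepsin W of cytotoxic lymphocytes, *Ccl5* a chemokine that such cells store, and *Klrd1* the CD94 chain of natural killer receptors. *Lcp2* and *Zap70* act directly below the T cell receptor, *Sla2* is an adaptor that restrains it, and *Ccr9* is the receptor for CCL25. The set's own genes had r between 0.875 and 0.966 with that mean, which includes them, except *Cd8b1* with 0.586, lower than any of the 10 listed. None of these 10 other genes passed the test between genotypes (limma adjusted p from 0.50 for *Ccr9* to 0.998 for *Zap70*).

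**Figure D3:**
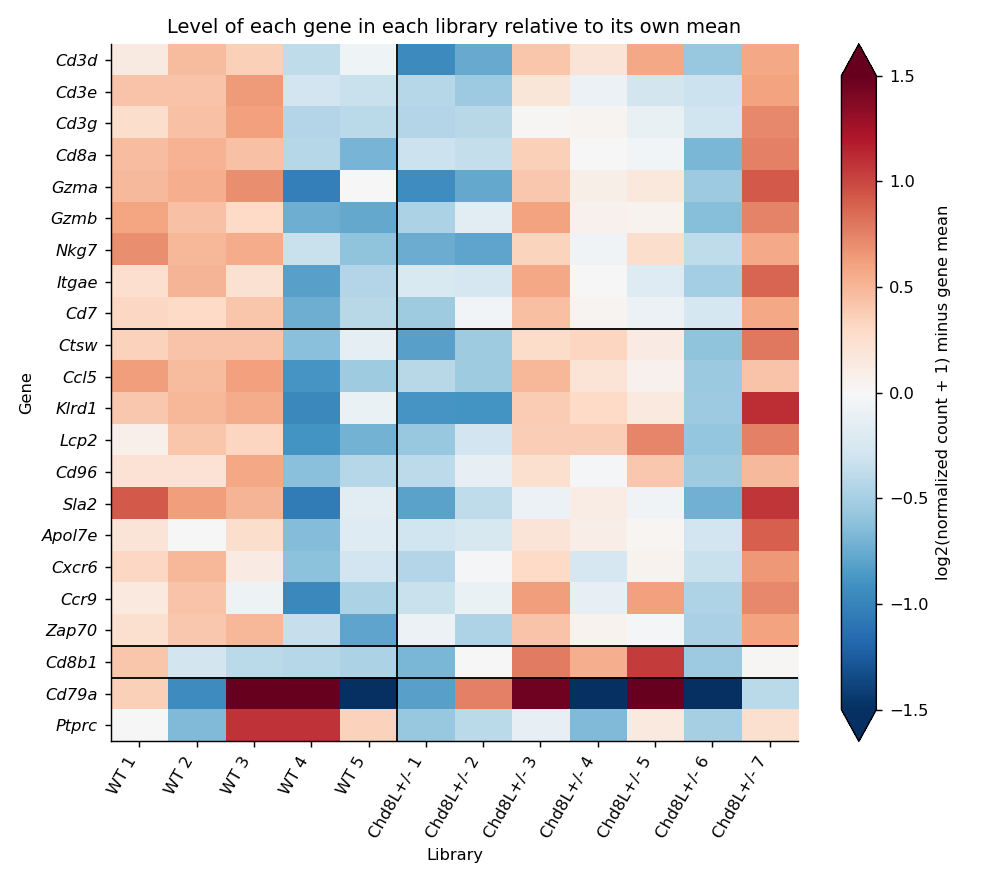
Log2(normalized count + 1) of each gene minus its mean over 12 libraries, with libraries in columns (WT left, *Chd8L*+/- right of the line) and red for higher. The upper blocks hold 9 of the genes and the 10 genes most like them, which are mostly high in WT replicates 1 to 3 and *Chd8L*+/- replicates 3 and 7, while *Cd8b1* and the rows of *Cd79a* (B cells) and *Ptprc* below follow other patterns. *Cd3d*, *Lcp2* and *Ccr9* are also high in *Chd8L*+/- replicate 5, where *Cd8b1* is highest.

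*Cd8b1* was highest in *Chd8L*+/- replicate 5, at 59.7 normalized counts, where the summed level of the other genes was intermediate. *Cd3d* also had its highest value there, 132, and its centred r with *Cd8b1*, 0.703, was the highest of the pairs with *Cd8b1*. In that library *Cd4*, the co-receptor of helper T cells, was also highest of the 12, at 77.5 normalized counts, and *Cd79a*, a chain of the B cell receptor, was 431 against a *Chd8L*+/- median of 56.6. *Cd6*, a surface protein of conventional T cells, had r = 0.636 with *Cd8b1* (adjusted permutation p = 0.0546) and rho = 0.685 (adjusted permutation p = 0.0351). Without the 2 libraries farthest from the median of *Cd8b1*, r was 0.530. In WT replicate 4, *Cd79a* was 488, the highest of all, while *Gzma* was at its lowest. Over the 12 libraries the correlation of *Cd79a* with *Cd3e* did not pass (r = 0.105, adjusted permutation p = 0.783). *Cd4*, *Cd6* and these libraries were singled out after their values were seen, a choice that the adjusted p-values of *Cd6* do not take into account.

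Ratios between the genes, taken within each library and described with no test, set the shared variation aside. Most have *Cd3e* as the denominator, the gene with the lowest log2 fold change of the 10 (-0.30), which by itself raises such ratios in *Chd8L*+/- libraries. *Cd7* relative to *Cd3e* was 1.27, 1.27, 1.19, 1.02 and 1.31 in WT replicates 1 to 5 and 1.29, 1.52 and 1.98 (lowest, median, highest) in *Chd8L*+/- libraries. Of the *Chd8L*+/- ratios, 6 of 7 lay above every WT ratio. *Itgae* relative to *Cd3e* was 1.35, 1.62, 1.15, 1.06 and 1.42 in WT libraries and 1.34, 1.76 and 2.02 in *Chd8L*+/- libraries, again with 6 of 7 above the WT range, though *Chd8L*+/- replicates 4 and 5, at 1.62, exceeded the highest WT ratio only marginally. *Gzmb* relative to *Cd3e* was above the WT median of 2.72 in 7 of 7 *Chd8L*+/- libraries and above the WT maximum of 3.86 in 3. *Cd8a* relative to *Cd3e* was above the WT range in 5 of 7 and below it in 1.

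By contrast, *Gzma* and *Nkg7* relative to *Cd3e* overlapped broadly, with medians of 9.22 and 10.04 for *Gzma* and 0.625 and 0.631 for *Nkg7* in WT and *Chd8L*+/- libraries. *Cd8b1* relative to *Cd8a* had a median of 0.0556 in WT and 0.0731 in *Chd8L*+/- libraries, and reached 0.124 in *Chd8L*+/- replicate 5. The ratios with *Cd3e* share its value in each library, so they are not independent of one another. Ratios to the other CD3 chains, whose log2 fold changes were -0.17 (*Cd3g*) and -0.18 (*Cd3d*), were not taken. A genotype shift of *Cd7* or *Itgae* is therefore not shown by these ratios.

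**Figure D4:**
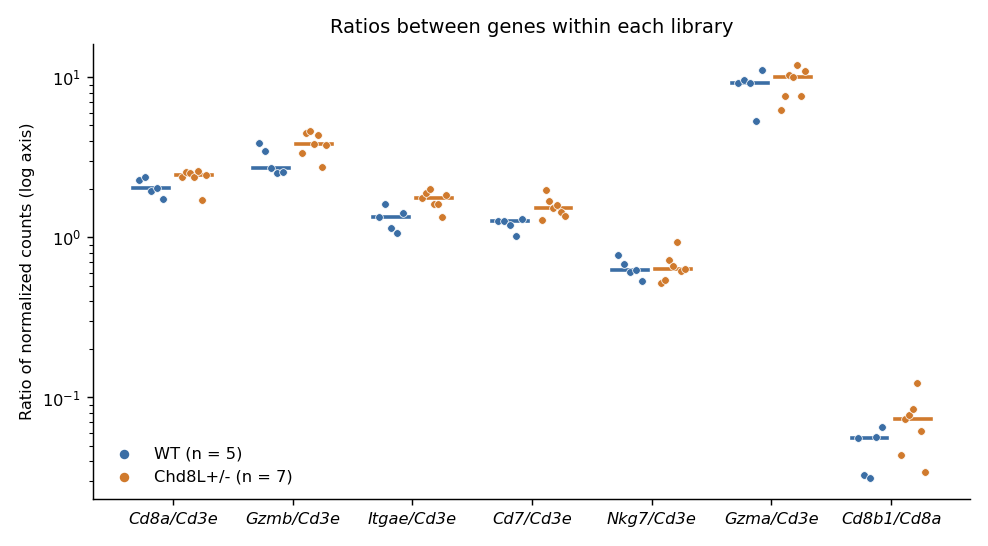
Ratio of normalized counts (log axis) between pairs of genes within each library, WT in blue (n = 5) and *Chd8L*+/- in orange (n = 7), with bars at the medians. *Cd7*/*Cd3e* and *Itgae*/*Cd3e* lie above the WT range in 6 of 7 *Chd8L*+/- libraries, while *Gzma*/*Cd3e* and *Nkg7*/*Cd3e* overlap broadly.

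The wider program of these cells was followed with lists of related genes. Of 26 listed genes of the T cell receptor complex and its signaling, 18 were in the table and 16 were tested, of which 4 were lower and 12 higher in *Chd8L*+/- mice, with a median log2 fold change of 0.08. The balance turned to 13 lower and 3 higher without WT replicate 5 (median -0.17), to 10 lower and 6 higher without *Chd8L*+/- replicate 3 (median -0.04), and to the same 10 and 6 with quantile normalization (median -0.03). None passed the limma test, and 0 had an unadjusted p of 0.05 or less. *Lck*, the kinase that starts signaling from CD4 and CD8, was 217 ± 72.0 in WT (SD, n = 5) and 219.9 ± 78.5 in *Chd8L*+/- mice (SD, n = 7), a log2 fold change of 0.00 (-0.60 to 0.60). *Ptpn22*, a phosphatase that dampens this signal, was 167 ± 50.5 and 223 ± 122 normalized counts. The receptor constant-region genes on the list were not analysed here, so alpha beta and gamma delta T cells could not be separated.

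Of 29 listed genes of cytotoxic granules and killer cell receptors, 25 were in the table and 17 were tested, 9 lower and 8 higher, with a median log2 fold change of -0.07, and 0 passed at either the adjusted or the unadjusted threshold by limma. With 1 library left out the median lay between -0.33 (without WT replicate 4) and 0.08 (without WT replicate 2). *Ccl5* was 717 ± 305 in WT (SD, n = 5) and 636 ± 196 in *Chd8L*+/- mice (SD, n = 7), with a log2 fold change of -0.10 (-0.74 to 0.53). *Fasl*, which encodes the Fas ligand, was 32.9 ± 12.5 and 26.1 ± 14.8 normalized counts, and *Prf1*, which encodes the pore-forming perforin, was low at 15.6 ± 7.16 and 16.7 ± 5.35. *Fasl* and *Prf1* were named after their values were seen. Leaving out WT replicate 2 gave 0 calls in both of these lists too.

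Among 30 tested genes of homing, residency and regulation of intraepithelial lymphocytes, 14 were lower and 16 higher, with a median log2 fold change of 0.01. None passed the adjusted threshold by limma and 3 had an unadjusted p of 0.05 or less, all higher in *Chd8L*+/- mice, against 24.3% of all genes tested. *Bcl11b* and *Tcf7* were among them. When WT replicate 2 was left out, 3 genes of the list, these included, passed, against 27.6% of all genes, so neither share was above that of genes at large. DESeq2 on the recovered reads called 1 gene of the list, against 6.44% of all genes. With the letter of the library name as a block, 1 was called, against 3.52%. For 1 gene of the list the groups did not overlap, against 0.515% of all genes. The median of the list lay between -0.10 (without WT replicate 5) and 0.13 (without WT replicate 2) with 1 library left out.

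*Bcl11b*, a transcription factor that maintains T cell identity, was 419 ± 206 in WT (SD, n = 5) and 591 ± 104 in *Chd8L*+/- mice (SD, n = 7), a log2 fold change of 0.60 (0.07 to 1.12, adjusted p = 0.164 by limma). *Tcf7*, which encodes TCF1, a Wnt-pathway transcription factor of T cells, was 93.4 ± 22.4 and 122 ± 16.5 normalized counts, a log2 fold change of 0.41 (0.03 to 0.79, adjusted p = 0.186 by limma). Without WT replicate 2, the limma adjusted p was 0.00895 for *Bcl11b* and 0.0427 for *Tcf7*. Within the *Chd8L*+/- libraries these 2 genes did not follow the 10 genes. In replicate 7, where the sum of the 10 genes was highest, *Bcl11b* (393) and *Tcf7* (101) had their lowest *Chd8L*+/- values. In replicate 1, where that sum was the lowest *Chd8L*+/- value, they were 613 and 132. Which cells their RNA came from was not tested. Among other regulators of these cells, *Runx3*, which directs CD8 T cells, and *Tbx21*, which encodes T-bet, had log2 fold changes of -0.03 each. *Jaml*, an adhesion receptor, had 0.25, and *Itgb7*, the partner of CD103, had -0.08 (adjusted p = 0.520 and 0.911 by limma). *Runx3* and *Tbx21* were named after their values were seen.

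On the epithelial side, 15 of 20 listed ligands and cytokines were tested, 10 lower and 5 higher in *Chd8L*+/- mice, with a median log2 fold change of -0.08 that changed sign without *Chd8L*+/- replicate 6 (0.01), with quantile normalization (0.04) and with the replicate number as a block (0.04). None passed the adjusted threshold by limma, and 3 of 15 had an unadjusted p of 0.05 or less, against 24.3% of all genes. Without WT replicate 2, 4 of 15 passed, against 27.6% of all genes, so neither share was above that of genes at large. DESeq2 called 0 of them, and with the letter of the library name as a block 1 was called, *Ulbp1*, against 3.52% of all genes. *Il15*, the survival cytokine of intraepithelial lymphocytes, was 432, 305, 422, 304 and 490.3 normalized counts in WT libraries and 176, 232 and 522 (lowest, median, highest) in *Chd8L*+/- libraries. In this gene 5 of 7 *Chd8L*+/- libraries lay below every WT library, while replicate 7 was the highest of all 12. The log2 fold change of *Il15* was -0.56 (-1.09 to -0.04, adjusted p = 0.185 by limma, and 0.0817 without WT replicate 2). *Il15* and *Cd3e* had r = 0.553 over the 12 libraries (rho = 0.490, adjusted permutation p = 0.114 and 0.178), and r was 0.304 without the 2 farthest libraries, so no relation was shown.

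*Ulbp1*, a ligand of the NKG2D receptor that marks stressed cells, was 3.56, 24.4, 3.02, 0.992 and 6.27 in WT libraries and 6.66, 29.3 and 47.6 (lowest, median, highest) in *Chd8L*+/- libraries. WT replicate 2 lay inside the *Chd8L*+/- range, and WT replicate 5 lay just below its lowest value. The log2 fold change was 2.10 (0.79 to 3.41, adjusted p = 0.121 by limma, 0.00568 without WT replicate 2), from as few as 1 read in a library. *Tnfrsf14*, which encodes the HVEM receptor on epithelial cells, was 182 ± 37.7 in WT (SD, n = 5) and 238 ± 33.2 in *Chd8L*+/- mice (SD, n = 7), a log2 fold change of 0.40 (adjusted p = 0.154 by limma, 0.0337 without WT replicate 2).

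The butyrophilin-like genes *Btnl1* and *Btnl6*, whose proteins together maintain gut gamma delta T cells, had log2 fold changes of -0.24 and -0.08 (adjusted p = 0.452 and 0.827 by limma). *Btnl1* was 4938, 2510.3, 5315, 5033 and 4746 in WT libraries and 3028, 3358 and 4615 (lowest, median, highest) in *Chd8L*+/- libraries. WT replicate 2 was the lowest of all 12, and without it every WT library lay above every *Chd8L*+/- library, with a log2 fold change of -0.44 (adjusted p = 0.0369 by limma). *H2-T23*, the nonclassical class I gene for Qa-1, had a log2 fold change of -0.31 with all libraries (adjusted p = 0.341 by limma) and of -0.49 without that library (adjusted p = 0.0350 by limma). *Ccl25* and *Cdh1*, the gene for the E-cadherin that CD103 binds, had log2 fold changes of -0.02 (-0.40 to 0.36) and 0.03 (-0.33 to 0.40). The correlations of *Btnl1* (r = 0.0207), *Btnl6* (-0.160), *Ccl25* (0.234) and *Cdh1* (-0.292) with *Cd3e* across libraries did not pass (adjusted permutation p from 0.529 to 0.946).

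**Figure D5:**
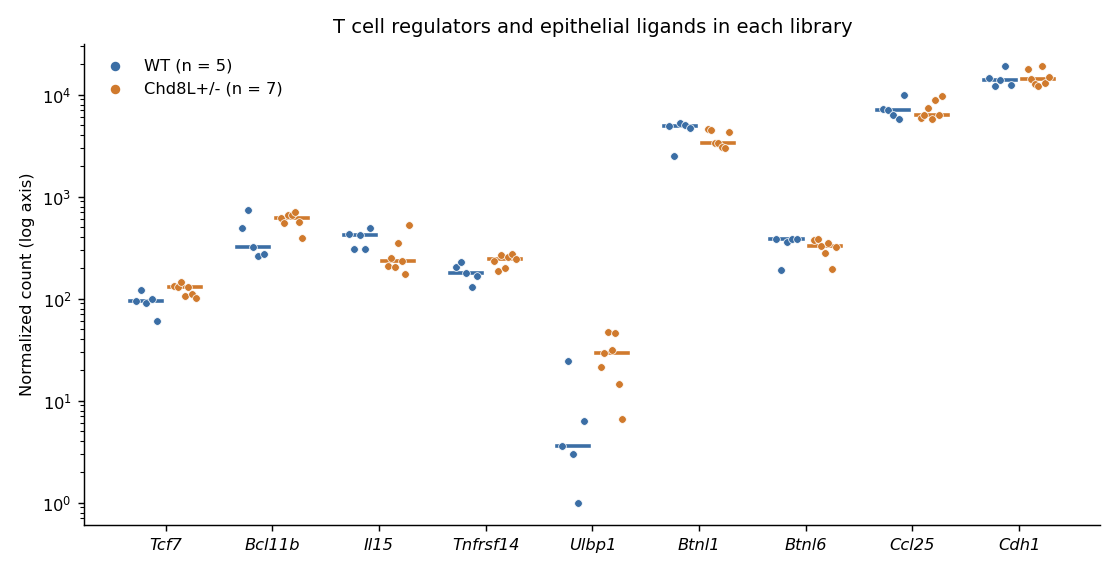
Normalized counts (log axis) of 2 regulators known from T cells (*Tcf7*, *Bcl11b*), whose source here was not tested, and 7 epithelial ligands in each library. WT is in blue (n = 5) and *Chd8L*+/- in orange (n = 7), with bars at the medians. The groups overlap for every gene shown, and WT replicate 2 is the highest WT point for *Ulbp1*, at 24.4, and the lowest point for *Btnl1*, at 2510.3.

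Genes of other cells were followed in the same libraries. Of 11 pan-leukocyte genes, 8 were lower and 3 higher, with a median log2 fold change of -0.07. With 1 library left out the median ran from -0.37 (without WT replicate 5) to 0.13 (without WT replicate 4). It was 0.21 with the number in the library name as a block. *Rac2* and *Ptprc* (CD45) had the smallest p-values, with 1774 ± 1066 and 1425 ± 668 normalized counts in WT (SD, n = 5) and 541 ± 221 and 852 ± 219.7 in *Chd8L*+/- mice (SD, n = 7). Their adjusted p-values were 0.121 and 0.187 by limma, and 0.00265 and 0.0153 without WT replicate 2. DESeq2 called 1 gene of this list, *Rac2* (adjusted p = 0.00237), against 6.44% of all genes. The correlation of *Ptprc* with *Cd3e* did not pass (r = 0.259, adjusted permutation p = 0.571), and *Rac2* and *Ptprc* are also known from tuft cells. *Laptm5* and *Coro1a*, other genes of that list, had log2 fold changes of -0.01 and -0.07.

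The markers of macrophages and dendritic cells were higher in *Chd8L*+/- mice for 11 of 11 tested genes, with a median log2 fold change of 0.97. By limma 5 had an unadjusted p of 0.05 or less, against 24.3% of all genes tested, and 0 passed the adjusted threshold. Without WT replicate 2, 6 passed, *Itgam* and *C1qa* among them, against 27.6% of all genes. DESeq2 called 1, *Itgam*, against 6.44% of all genes. Their summed normalized counts were 1298 to 3411 in WT and 1946 to 4325 in *Chd8L*+/- libraries, with WT replicate 2 the highest of the WT libraries.

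B and plasma cell genes had no stable direction. Their log2 fold changes were negative for 12 of 12 tested with all libraries, with a median of -0.42, but for 5 of 12 without WT replicate 4 (median 0.04), for 6 of 12 without *Chd8L*+/- replicate 4 or 6, and for 0 of 12 with the number in the library name as a block (median 0.50), and without WT replicate 5 the median was -0.97. By limma with all libraries, 0 of them passed an unadjusted p of 0.05, and their summed counts ranged from 523 to 2738 in WT and from 273 to 5194 in *Chd8L*+/- libraries. Of 8 natural killer and innate lymphoid genes, 1 was tested and did not pass. Of 9 mast cell genes, 3 were tested, of which *Kit*, not confined to mast cells, was 978 ± 388 in WT and 544 ± 204 in *Chd8L*+/- mice (log2 fold change -0.84, adjusted p = 0.134 by limma, 0.0150 without WT replicate 2). Stromal and endothelial genes were higher for 7 of 7 tested, with a median log2 fold change of 1.76 and summed counts of 135 to 605 in WT and 221 to 1992 in *Chd8L*+/- libraries. By limma 4 had an unadjusted p of 0.05 or less, against 24.3% of all genes tested, and 0 passed the adjusted threshold. Without WT replicate 2, 3 passed (*Col1a1*, *Col1a2* and *Col3a1*), against 27.6% of all genes. DESeq2 called 1, *Acta2*, against 6.44% of all genes. *Chd8L*+/- replicate 5, where *Cd8b1* was highest, also had the highest stromal, B cell and macrophage sums, and their part in the level of *Cd8b1* was not tested.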

How the data were processed

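Poly(A) RNA libraries of gut epithelial cells from 5 WT and 7 *Chd8L*+/- mice were sequenced by the authors as single-end reads, mapped to mm10 with Tophat2 and analysed with DESeq2, which the submitters' processing notes also name. The deposited signal per gene is the read count divided by a size factor of the library, called normalized count here. The counting program, annotation and use of strand were not given in the sources used here. The values were whole multiples of what 1 read is worth in each library, so that the authors' counts could be recovered, with 100% of the values whole within 0.01 of a read. Library totals were 15691662 to 20761315 reads, and 12808 of 14244 genes had a mean of at least 10. Rows whose names are dates (21) or repeated (4) were not named.

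The genotypes were compared over all libraries, without covariates, with limma 3.58.1 in R 4.3.3 (lmFit, then eBayes with trend), applied to log2(value + 1) of the genes averaging 10 or more, and fold changes are on that scale, which understates changes of low genes. Adjusted p-values are Benjamini-Hochberg over all genes tested, with a threshold of 0.05. For single genes the two-sided exact permutation test over libraries was added, whose smallest p is 0.00126, and correlations with 100000 permutations, whose smallest p is 1e-05. The mice are separate animals.

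The 10 genes and the lists were chosen with earlier results of these data known. Genes named are the 10 genes, *Chd8*, the 10 genes most like their centred mean, *Cdh1*, *Il15*, *Btnl1*, *Btnl6* and *Ccl25* and, from each list, genes past the threshold (or up to 4 with the smallest unadjusted p of 0.05 or less) and from among the 3 with the highest value per length; others are marked as named after their values were seen, and some genes are not reported here. Alternatives were a pseudocount of 0.5 or 5, other filters, quantile normalization, recovered reads in edgeR 4.0.16 or in DESeq2 1.42.0, 3 blocks and each library left out. The limma and edgeR steps were tested on simulated data. Positions and exon lengths are from GENCODE M21, promoters from RefSeq.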

Additional observations from a re-analysis of the deposited data

Results flagged for a closer look

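In 56 groups of libraries, the highest or lowest library was compared with its nearest neighbor, and 5 stood apart by Dixon's criterion, where chance alone gives about 1 in 20, or 2.8. *Cd3g* in *Chd8L*+/- replicate 7 was 460.4 normalized counts, against 289 in the next library, *Chd8L*+/- replicate 4. *Cd8b1* in WT replicate 1 was 38.2, against 23.3 in WT replicate 2. *Apol7e* in *Chd8L*+/- replicate 7 was 306, against 188 in *Chd8L*+/- replicate 3. In WT replicate 2, *Btnl1* was low at 2510.3, with 4746 in WT replicate 5 next to it, and *Btnl6* was low at 192, with 363 in WT replicate 3 next to it.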

How the results depend on the processing

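None of the 10 genes was called under any of the 22 alternatives, and the smallest adjusted p among them was 0.109, for *Cd3e* with the first letter of library names as a block. Of 220 alternative log2 fold changes of the 10 genes, 201 kept their direction and 19 changed sign, all without passing the threshold; the exact permutation test kept its direction in 136 of 150, with a smallest p of 0.0823. The sign changed for *Cd7* with quantile normalization (-0.0138 in both tests), for *Cd7* with the number in the library name as a block (-0.0056), and for *Gzmb* (-0.0794), *Itgae* (-0.0931) and *Cd7* (-0.10) with the letter as a block. With 1 library left out, log2 fold changes ran from -0.29 to 0.0109 for *Cd8a*, from -0.12 to 0.22 for *Gzmb*, from -0.10 to 0.23 for *Itgae* and from -0.13 to 0.16 for *Cd7*. The cause of these changes was not tested.

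Replicate numbers shared by the genotypes did not pair the libraries, since the deviations of same-numbered libraries had correlations from -0.34 to 0.19. With the replicate number as a block, 0 of all genes were called, against 3 without it, and *Cd7* changed sign (-0.0077). The count of all genes called was 5 with edgeR, 811 with DESeq2, 451 with the letter as a block and 0 with the number in the library name as a block. With 1 library left out it ran from 0 to 3534, the highest without WT replicate 2. Genes with few reads, such as *Cd8b1*, are limited by counting error.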
